A study of Mus musculus with 9 samples.

Results

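The 10 genes described here encode proteins that take up, store, oxidise or export iron, and the metallothioneins, which bind zinc and copper. They were chosen by symbol: the metallothioneins Mt1, Mt2 and Mt3, the transferrin receptor Tfrc, transferrin (Trf), the ferritin heavy chain Fth1, ferroportin (Slc40a1), ceruloplasmin (Cp), and the metal transporters Slc11a2 and Slc39a14. They are 10 of 22092 genes with a row in the count tables, and all 10 were among the 14427 genes that passed the filter on low counts and were tested.

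All libraries came from 2-month-old mice of the strain Aldh1L1 JD130 with the transgene Aldh1L1-L10aGFP, a line the study calls Aldh1l1:L10a-eGFP, in which a ribosomal protein is fused to eGFP and driven by the promoter of the astrocyte gene Aldh1l1. The whole astrocyte group held 3 libraries, each from 1 whole brain from which the choroid plexus had been taken out. The endfeet group held 6 libraries, each from brain vessels pooled from 8 mice, which keep the astrocyte endfeet that wrap them. In both groups the tagged ribosomes were pulled down with GFP antibodies and the bound mRNA was amplified and sequenced (translating ribosome affinity purification, TRAP). The comparison is aimed at mRNAs on ribosomes at the vascular end of the astrocyte. Endfeet libraries also held endothelial, mural cell and choroid plexus markers, at levels given below. Which cells a difference in the counts came from was not tested.

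Iron circulates bound to transferrin, enters cells when the transferrin receptor is internalised, leaves the endosome through Slc11a2, is stored in ferritin and leaves the cell through ferroportin, whose export is helped by the oxidase ceruloplasmin. Brain iron crosses the vessel wall, where endothelial cells are rich in transferrin receptor and astrocyte endfeet, which carry ceruloplasmin on their surface, lie on the other side. Cells adjust these mRNAs through the iron responsive element, a short stem and loop to which iron regulatory proteins bind: in a 5′ UTR the bound protein blocks translation, and in the 3′ UTR of the transferrin receptor it protects the mRNA. Metallothionein genes are switched on by zinc and copper through the factor Mtf1, which binds metal response elements in their promoters.

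The sequences below show the elements that set these mRNAs apart from each other, since the counts are of mRNA recovered by the pull-down, Tfrc, Fth1 and Slc40a1 included. A search of the GENCODE M21 transcripts (GRCm38) for a C, 5 bases, the loop CAGTGN and 5 bases pairing with the first 5 found the element in 267 of 22086 representative transcripts, or 1.21%, with the loop in capitals here. Slc40a1 held 1 copy in its 5′ UTR (chr1:45925465-45925493, minus strand), Fth1 held 1 copy in its 5′ UTR (chr19:9982732-9982760, plus strand), and Tfrc held 4 copies in its 3′ UTR on the plus strand of chromosome 16 (chr16:32631219-32631247, chr16:32631598-32631626, chr16:32631663-32631691 and chr16:32631710-32631738, in the order printed). No match was found in the representative transcripts of the other 7 members. The search asked for all 5 pairs of the stem, so an element with a mismatch would be missed. The lack of a match therefore does not show that an element is absent.
Slc40a1 element: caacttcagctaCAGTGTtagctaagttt
Fth1 element: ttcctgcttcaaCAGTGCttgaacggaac
Tfrc element 1: aattatcggaagCAGTGCcttccataatt
Tfrc element 2: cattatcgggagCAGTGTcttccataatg
Tfrc element 3: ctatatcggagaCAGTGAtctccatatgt
Tfrc element 4: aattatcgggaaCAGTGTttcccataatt
The loop ended in C or T in 5 of these 6 copies, and in A in the third copy of Tfrc.

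For the metallothioneins the promoter is shown, because Mt1, Mt2 and Mt3 lie close together on chromosome 8 and all 3 were lower in endfeet. The RefSeq promoters (GRCm38.p6, 250 bases before to 50 after the start of transcription) were searched on both strands for the core of the metal response element, written TGCACNC or TGCGCNC, and the matches are in capitals. The Mt1 promoter (chr8:94178839-94179138, plus strand) held 3 matches, at positions -23, 2 and 20 from the start. The Mt2 promoter (chr8:94172368-94172667, plus strand) held 4, at positions -223, -128, -50 and 4, of which the last pair lie on the minus strand.
Mt1 promoter: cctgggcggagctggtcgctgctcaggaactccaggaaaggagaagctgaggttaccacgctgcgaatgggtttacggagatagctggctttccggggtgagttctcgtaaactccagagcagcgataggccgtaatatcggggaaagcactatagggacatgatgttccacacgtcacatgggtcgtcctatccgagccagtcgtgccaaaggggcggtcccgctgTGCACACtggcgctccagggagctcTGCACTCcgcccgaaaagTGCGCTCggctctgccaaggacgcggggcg
Mt2 promoter: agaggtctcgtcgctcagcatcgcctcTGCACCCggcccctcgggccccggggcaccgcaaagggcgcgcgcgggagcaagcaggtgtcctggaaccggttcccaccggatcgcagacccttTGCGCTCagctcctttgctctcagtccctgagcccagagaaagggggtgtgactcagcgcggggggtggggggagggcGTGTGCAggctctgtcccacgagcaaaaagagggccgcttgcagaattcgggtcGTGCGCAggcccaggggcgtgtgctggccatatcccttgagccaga
Of 32851 RefSeq promoters of this length, 25.7% held at least 1 match, 1.97% held at least 3 and 0.517% held at least 4. The Mt3 promoter (chr8:94152357-94152656) held 1 match, at position 27. Of the 2 Tfrc promoters in the table, 1 held 2 matches that overlap each other on opposite strands, and the promoters listed for Fth1 and Cp held 0. Trf, Slc40a1, Slc11a2 and Slc39a14 were not matched.

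The libraries differed in depth and in what else they held. The 3 whole astrocyte libraries held 35984144 to 43521208 counts on genes, and the 6 endfeet libraries held 2319495 (library 6) to 13450588 (library 5), with 6511709 in library 1. Astrocyte markers, 10 genes in all, summed to 23409 to 25830 CPM (counts scaled to a library of 1000000) in whole astrocyte and 10831 to 31448 CPM in endfeet libraries. Of these, 4 were below every whole astrocyte library in all endfeet libraries, among them Aldh1l1 itself (241.9 to 267.8 CPM against 17.7 to 88.7 CPM). Aqp4 was the 1 gene above in all of them (424.8 to 594.8 CPM against 648.2 to 2330 CPM). All 12 endothelial markers were higher in every endfeet library than in every whole astrocyte library, with sums of 47.7 to 57.5 CPM against 4301 to 6200 CPM, and so were all 10 mural cell markers (42.4 to 47.8 CPM against 4127 to 8636 CPM). Choroid plexus markers, 6 genes led by transthyretin (Ttr), summed to 50.2, 1493 and 1225 CPM in whole astrocyte libraries 1 to 3 and to 6791 CPM (library 5) to 89890 CPM (library 1) in endfeet. Fibroblast (28.9 to 42.4 against 779.3 to 1537 CPM), microglia and macrophage (23.2 to 27.9 against 247.1 to 425.3 CPM), ependymal (37.2 to 49.4 against 128.8 to 253.7 CPM) and erythroid sums (1.54 to 3.07 against 36.8 to 125.5 CPM) were higher in endfeet, with Hba-a2 at 0 in all libraries. Every endfeet library was above every whole astrocyte library for 6 of 7 fibroblast and 6 of 11 microglia and macrophage genes. The same held for 2 of 5 ependymal and 3 of 7 erythroid genes. Oligodendrocyte (699.1 to 707.3 against 250.5 to 567.0 CPM) and neuronal sums (3272 to 3828 against 919.9 to 1938 CPM) were lower in endfeet. Every endfeet library was below every whole astrocyte library for 4 of 10 oligodendrocyte and 3 of 7 neuronal genes. In pooled tissue of this kind, fewer cells of a type and less RNA per cell cannot be told apart, and the part of these cell types in the results below was not tested except where a value is given beside the result.

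Of the 10 members, 6 were higher in endfeet (Slc40a1, Cp, Tfrc, Trf, Slc11a2, Fth1), 3 were lower (Mt1, Mt2, Mt3), and Slc39a14 did not pass an adjusted p of 0.05 in edgeR's quasi-likelihood test. Over all genes tested, 34.6% were called, 20.7% higher and 13.9% lower. The 6 members called higher lay above all whole astrocyte libraries in all 6 endfeet libraries, a pattern that 18.9% of all genes tested showed, and the 3 called lower lay below them in all 6, which 23.8% of all genes showed. The median log2 fold change of the 10 members was 1.59, against 0.10 for all genes tested. With endfeet libraries 4 to 6 only, whose count files carry numbers of the same series as those of the whole astrocyte libraries, the same test called 9 of the 10.

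**Figure D1:**
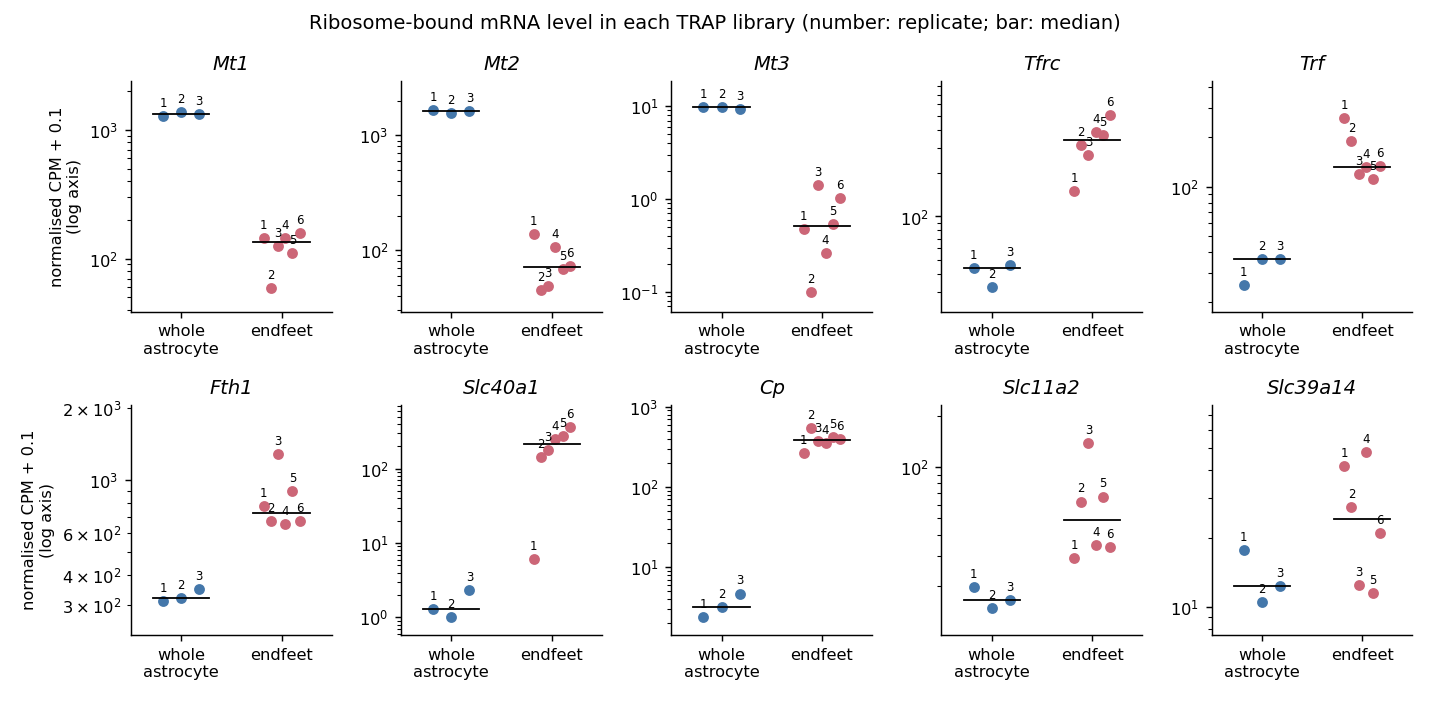
Level of each of the 10 members in every library, in CPM after scaling (vertical log axis, 0.1 added), for 3 whole astrocyte (blue) and 6 endfeet (red) libraries; numbers give the replicate and bars the median. Endfeet libraries lie apart from whole astrocyte libraries for 9 members, below for Mt1, Mt2 and Mt3 and above for the iron genes, and overlap for Slc39a14.

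Mt1 and Mt2, small proteins that hold zinc and copper ions and are abundant in astrocytes, were among the highest mRNAs of the whole astrocyte and fell in endfeet. Mt1 (ENSMUST00000034215, chr8:94179082-94180327) stood at 1282, 1364 and 1316 CPM in the whole astrocyte libraries and at 58.7, 133.8 and 157.1 CPM as the lowest, median and highest of the 6 endfeet libraries. No endfeet library came near the whole astrocyte libraries, and endfeet library 2 was the lowest. The mean was 10.7-fold lower in endfeet (123.0 ± 35.4 CPM, SD, n = 6, against 1321 ± 40.9 CPM, n = 3), or -3.43 on the log2 scale (SE 0.28, adjusted p = 1.81e-06). Per kilobase of transcript, Mt1 took rank 7 of all genes in whole astrocyte and rank 114 in endfeet libraries.

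Mt2 (ENSMUST00000034214, chr8:94172664-94173568) stood at 1654, 1579 and 1642 CPM in whole astrocyte libraries and at 45.2, 70.7 and 138.6 CPM (lowest, median, highest) in endfeet. The highest endfeet value, in library 1, was still far under the lowest whole astrocyte value. The fall was 20.3-fold on the means, or -4.35 on the log2 scale (SE 0.34, adjusted p = 1.26e-06), and the rank per kilobase went from 6 to 178.

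Mt2 fell further than Mt1. The log2 ratio of Mt2 to Mt1 counts within a library was 0.37, 0.21 and 0.32 in whole astrocyte libraries, where Mt2 had more reads, and -0.05, -0.38, -1.37, -0.43, -0.69 and -1.11 in endfeet libraries 1 to 6, where Mt1 had more. The groups did not overlap and differed by -0.97 (exact permutation test over all 84 ways to choose 6 of 9 libraries, two-sided p = 0.0238, adjusted over 6 ratios 0.0476). The difference kept its direction without each library in turn (-1.10 to -0.83). It passed 0.05 after adjustment only without endfeet library 1, the adjusted p without any other library being 0.0714 to 0.143. Without a whole astrocyte library few splits remain, and no ratio can pass after adjustment unless nearly all 6 ratios reach the lowest possible p. The adjusted p without a whole astrocyte library therefore does not show whether the result depends on that library. A ratio within a library does not depend on how the library was scaled, and none of the 50-base windows of either transcript is shared with a gene elsewhere. Gm45774 is annotated over Mt2 on the opposite strand, and without strand their reads could not be told apart.

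Mt3, the metallothionein first known from brain as a growth inhibitory factor, was detected at a low level. Mt3 (ENSMUST00000034211, chr8:94152607-94154146) had 356, 369 and 416 counts in the whole astrocyte libraries and 2, 0, 20, 2, 6 and 2 counts in endfeet libraries 1 to 6. Scaled, this was 9.62, 9.77 and 9.13 CPM against at most 1.31 CPM in endfeet, and the count of 0 in endfeet library 2 allows up to 0.347 CPM (3 counts). The log2 fold change was -4.17 (SE 1.02, adjusted p = 0.00671) and moved to -4.85 without endfeet library 3, which held 20 of the counts. The ratio of Mt3 to Mt1 overlapped between the groups and gave a difference of -1.09 (exact permutation p = 0.202, adjusted 0.304).

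The metallothionein transcripts are short, and short transcripts as a class were lower in endfeet. Of the 339 tested genes with a transcript of at most 700 bases, the class of Mt1 (549 bases), Mt2 (511) and Mt3 (536), the median log2 fold change was -1.06 and 25.1% were called lower. In the classes of 700 to 1000, 1000 to 2000, 2000 to 3000 and 3000 to 5000 bases the medians were -1.06, -0.69, -0.17 and 0.21, and above 5000 bases the median was 0.91. The falls of Mt1, Mt2 and Mt3 were larger than the median of their class. Fth1, with 929 bases, was higher in endfeet although the median of its class was lower, and Tfrc, Slc40a1, Cp, Slc11a2 and Slc39a14 belong to the class of 3000 to 5000 bases. The part of transcript length in these results was not tested.

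**Figure D2:**
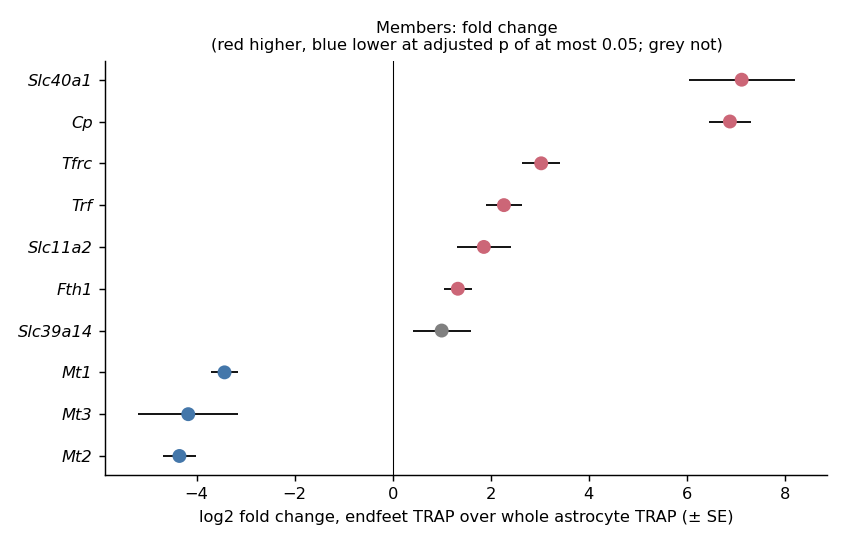
Log2 fold change of each member in endfeet over whole astrocyte TRAP libraries (horizontal axis), with its standard error as the bar (3 and 6 libraries). Slc40a1 at 7.12 and Cp at 6.88 lie farthest to the right, and Mt2 at -4.35 farthest to the left.

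The transferrin pair, receptor and ligand, was higher in endfeet. Tfrc (ENSMUST00000023486, chr16:32608920-32632794), the receptor through which cells take in transferrin iron, stood at 43.8, 32.4 and 45.9 CPM in whole astrocyte libraries and at 151.0, 341.2 and 507.1 CPM (lowest, median, highest) in endfeet. All 6 endfeet libraries were higher than every whole astrocyte library, with library 1 the lowest and library 6 the highest. The mean was 8.16-fold higher (332.5 ± 120.6 CPM, n = 6, against 40.7 ± 7.27 CPM, n = 3) and the fit gave 3.03 on the log2 scale (SE 0.39, adjusted p = 6.85e-05).

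Trf (ENSMUST00000035158, chr9:103208795-103230444), the plasma iron carrier that in brain is made by oligodendrocytes and the choroid plexus, stood at 25.4, 36.2 and 36.1 CPM in whole astrocyte libraries and at 110.4, 132.3 and 258.7 CPM (lowest, median, highest) in endfeet. It rose 4.82-fold on the means, or 2.27 on the log2 scale (SE 0.37, adjusted p = 0.000393). In endfeet libraries 1 to 6 Trf stood at 258.7, 188.7, 119.3, 131.6, 110.4 and 132.9 CPM beside choroid plexus sums of 89890, 40059, 26263, 14048, 6791 and 18557 CPM. The first 2 libraries were highest in both and library 5 lowest in both, while library 3 had the third largest choroid plexus sum and the second lowest Trf. Within whole astrocyte libraries, where the choroid plexus sum was 50.2 CPM in library 1 against 1493 and 1225 CPM, Trf was 25.4 CPM in library 1 against 36.2 and 36.1 CPM. The sum of oligodendrocyte markers was lower in endfeet, so between the groups the sum did not rise with Trf. Of the 10 genes in that list, 4 were below every whole astrocyte library in all endfeet libraries. Gm20425, annotated on the same strand, overlaps Trf by position, and its counts, 922 to 1549 in whole astrocyte and 241 to 1455 in endfeet libraries, were close to those of Trf (940 to 1647 and 291 to 1816).

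Fth1 (ENSMUST00000025563, chr19:9982646-9985098), the ferritin chain that oxidises iron for storage, was the most abundant member per kilobase in endfeet. It stood at 312.3, 321.2 and 350.1 CPM in whole astrocyte libraries and at 653.0, 727.2 and 1278 CPM (lowest, median, highest) in endfeet, with library 3 well above the rest. The rise was 2.52-fold on the means (log2 fold change 1.33, SE 0.28, adjusted p = 0.00247), and per kilobase Fth1 moved from rank 97 to rank 20 of all genes. A pseudogene, Gm6977, shares 6.59% of the 50-base windows of Fth1, the read length used, and reads from those stretches would have been removed as matching more than once.

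Fth1 mRNA rose less than Tfrc mRNA. The log2 ratio of Fth1 to Tfrc counts was 2.83, 3.31 and 2.93 in whole astrocyte libraries and 2.37, 1.11, 2.26, 0.75, 1.28 and 0.40 in endfeet libraries 1 to 6. The groups did not overlap, and the difference was -1.66 (exact permutation test, two-sided p = 0.0238, adjusted 0.0476). As with Mt2 and Mt1, the adjusted p rose to between 0.0714 and 0.143 without any library but endfeet library 1, while the difference stayed between -1.86 and -1.47. The limit given there for leaving out a whole astrocyte library holds here too.

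Among the 10 members, the iron export genes had the largest log2 fold changes. Slc40a1 (ENSMUST00000027137, chr1:45908068-45925582), ferroportin, which is the iron exporter of animal cells, stood at 1.19, 0.9 and 2.22 CPM in whole astrocyte libraries, from 44, 34 and 101 counts. In endfeet libraries 1 to 6 it stood at 6, 143.5, 176.2, 250.1, 274.5 and 358.6 CPM, from 32, 1249, 2681, 3107, 3724 and 785 counts. Endfeet library 1 was close to the whole astrocyte libraries, and the other 5 were far above them.
The ratio of means was 140 (201.5 ± 122.1 CPM, n = 6, against 1.44 ± 0.692 CPM, n = 3), and the log2 fold change was 7.12 (SE 1.08, adjusted p = 0.000237). Without endfeet library 1 it was 7.35 (adjusted p = 1.11e-06). The spread over endfeet libraries, a coefficient of variation of 60.6%, was large, with the highest library 59.7 times the lowest.

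Cp (ENSMUST00000108329, chr3:19957054-20007609), the copper oxidase that works beside ferroportin, stood at 2.3, 3.04 and 4.59 CPM in whole astrocyte libraries and at 265.7, 386.0 and 538.6 CPM (lowest, median, highest) in endfeet. Its endfeet libraries were the most alike of all members, with a coefficient of variation of 23%, and library 1 was again the lowest. The ratio of means was 118, and the log2 fold change was 6.88 (SE 0.42, adjusted p = 1.84e-07). Of the annotated forms of Cp with other 3′ ends, Cp-201 had 97.6 to 103% of the counts of the form used here in whole astrocyte and 72.9 to 106% in endfeet libraries, and the shorter Cp-203 had 80 to 88.5% and 66.7 to 91.7%. Cp overlaps Hps3 on the opposite strand, and whether the counting used strand is not given in the sources used here.

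Ferroportin rose more than the receptor, and endfeet library 1 did not share that rise. The log2 ratio of Slc40a1 to Tfrc was -5.19, -5.15 and -4.37 in whole astrocyte libraries and -4.63, -1.12, -0.60, -0.63, -0.43 and -0.50 in endfeet libraries 1 to 6. The difference was 3.58 (exact permutation test, two-sided p = 0.0238, adjusted 0.0476) and 4.25 without endfeet library 1 (adjusted 0.0357). Without any other library the adjusted p was 0.0714 to 0.143, with the limit given for Mt2 and Mt1 where a whole astrocyte library was left out.
The ratio of Cp to Slc40a1 was 0.94, 1.74 and 1.05 in whole astrocyte libraries and 5.45, 1.91, 1.10, 0.48, 0.63 and 0.14 in endfeet libraries 1 to 6. The groups overlapped and differed by 0.37 (exact permutation test, adjusted p = 0.869), and by -0.39 without endfeet library 1 (adjusted p = 0.429).

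**Figure D3:**
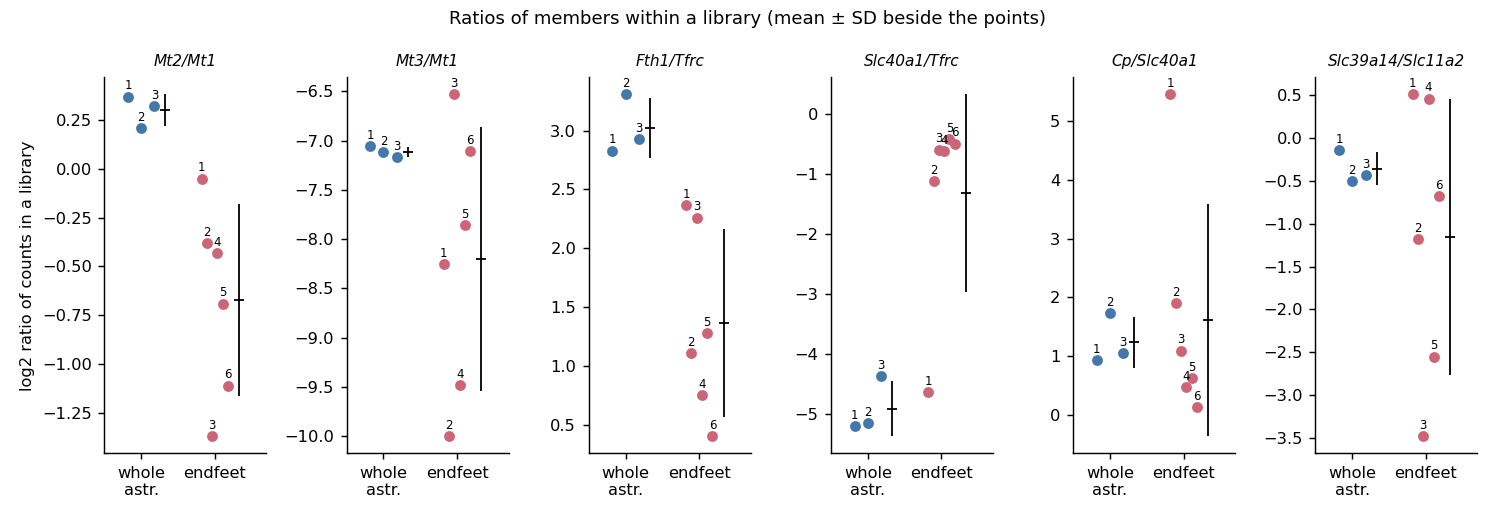
Log2 ratio of the counts of 2 members within each library (vertical axes, one per ratio, on different scales) for 3 whole astrocyte (blue) and 6 endfeet (red) libraries, with replicate numbers and the mean ± SD beside the points. Mt2/Mt1 and Fth1/Tfrc lie apart between the groups, and endfeet library 1 stands alone at -4.63 for Slc40a1/Tfrc and at 5.45 for Cp/Slc40a1.

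The members varied in different orders over the endfeet libraries. As a description over 6 libraries that differ in depth and in marker sums, Pearson's r of log2(CPM + 1) was highest for Tfrc with Slc40a1 (0.93) and Fth1 with Slc11a2 (0.83), and lowest for Trf with Slc40a1 (-0.88) and Mt2 with Cp (-0.85). Mt1 and Mt2 had an r of 0.65. Endfeet library 1, which held the lowest Tfrc, Slc40a1 and Cp and the highest Trf, also held the lowest endothelial (4301 CPM) and mural sums (4127 CPM). Its microglia and macrophage sum was the lowest as well, and its choroid plexus, fibroblast, ependymal and oligodendrocyte sums were the highest. The mural sum was led by Rgs5, at 1824 CPM in library 1 and 3808 to 6228 CPM in libraries 2 to 6. Abcc9, Kcnj8 and Notch3 were also lowest in library 1, while the other mural genes were not. In libraries 2 to 6 the endothelial sum was 5135 to 6200 CPM, while Slc40a1 ran from 143.5 to 358.6 CPM. Single endothelial markers ran in different orders over these libraries. Slco1a4 stood at 688.2, 972.6, 1099, 1214 and 1188 CPM, and Flt1 at 1415, 1500, 1418, 1152 and 1020 CPM. The part of endothelial cells in the Slc40a1 level was not tested.

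**Figure D4:**
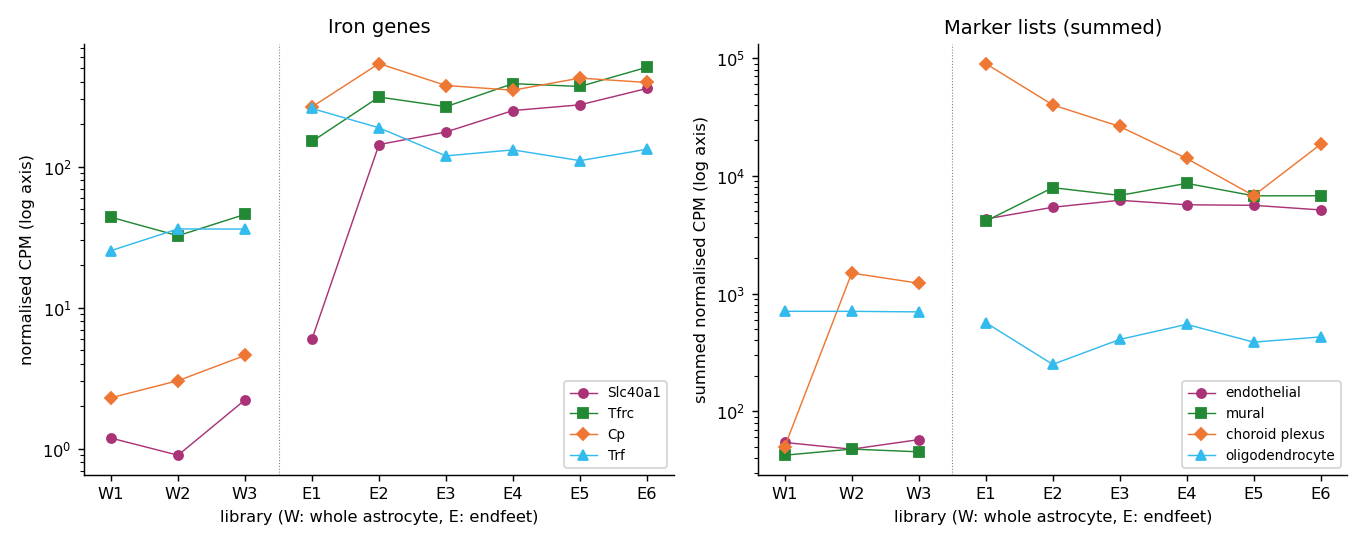
Left, scaled level (CPM, log axis) of Slc40a1, Tfrc, Cp and Trf in each of the 3 whole astrocyte (W) and 6 endfeet (E) libraries; right, summed CPM (log axis) of 4 marker lists in the same libraries. Trf is highest in the endfeet library with the largest choroid plexus sum (89890 CPM), in which Slc40a1, Tfrc and Cp are lowest.

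The 2 remaining members move divalent metals, and their data were less steady. Slc11a2 (ENSMUST00000138843, chr15:100392563-100423002), the divalent metal transporter that lets iron out of the endosome, stood at 19.4, 14.7 and 16.4 CPM in whole astrocyte libraries and at 29.1, 62.5, 138.6, 34.7, 66.9 and 33.8 CPM in endfeet libraries 1 to 6. All 6 endfeet libraries lay above the whole astrocyte libraries, 1 of them, library 3, far above. The log2 fold change was 1.86 (SE 0.55, adjusted p = 0.0193), and 1.44 without endfeet library 3 (adjusted p = 0.0403). It did not pass without whole astrocyte library 1 (2.01, adjusted p = 0.0598), library 2 (1.75, 0.0905) or library 3 (1.83, 0.0807).

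The excess of Slc11a2 in endfeet library 3 came with reads at its 5′ end. The short form Slc11a2-202 (chr15:100406306-100425072), which covers the first exons, had 998 counts there, 47.3% of the 2109 counts of the whole transcript, against 0 to 6.73% in the other 8 libraries. The form Slc11a2-201, which ends at another 3′ exon, had 24.9, 44.6 and 45.9% in whole astrocyte libraries and 81.3, 45.4, 64.4, 60.3, 33.2 and 10.8% in endfeet libraries 1 to 6, so its share did not separate the groups. These shares are of raw counts and were not tested. Gm5475, which overlaps Slc11a2 on the opposite strand, had 0 counts in endfeet library 3.

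Slc39a14 (ENSMUST00000068044, chr14:70303469-70351425), a zinc transporter family member that also carries iron and manganese, stood at 17.7, 10.4 and 12.2 CPM in whole astrocyte libraries and at 41.5, 27.5, 12.4, 47.7, 11.4 and 21 CPM in endfeet libraries 1 to 6. In 4 of 6 endfeet libraries it was above all whole astrocyte libraries, and in the other two it was within their range. Its log2 fold change, 1.0 with an SE of 0.59, did not pass (adjusted p = 0.209). The ratio of Slc39a14 to Slc11a2 differed by -0.80 between the groups, within the spread of the endfeet libraries (exact permutation test, adjusted p = 0.514).

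Other genes of iron handling were a mixed set. Of 30 listed genes, 23 were tested, of which 8 were higher in endfeet (34.8%, against 20.7% of all genes), 1 was lower (4.35%, against 13.9%) and 14 did not pass, with a median log2 fold change of 0.66. The largest rise was in Lcn2, which binds bacterial iron carriers (8.59, adjusted p = 0.00218, 0 to 55.8 CPM in endfeet against at most 0.132 CPM). The metal reductase Steap4 (7.71, adjusted p = 0.000705, and 6.96 without endfeet library 6) and its family member Steap1 (4.94, adjusted p = 0.0297) came next. Hfe, a partner of the transferrin receptor, followed (3.84, adjusted p = 0.00147), with endfeet library 1 far above the other 5 (27.7 to 57.1 CPM), and was at 3.07 without that library (adjusted p = 0.000184). Lcn2, at 0 in endfeet library 6, was at 10.13 without whole astrocyte library 3 (adjusted p = 0.00718). With endfeet libraries 4 to 6 only (6.28, 20.7 and 0 CPM), it did not pass the filter on low counts and was not tested. Steap1 ran from 0.457 to 70.8 CPM over endfeet libraries, was at 1.32 on the log2 scale with endfeet libraries 4 to 6 only (adjusted p = 0.392), and lost its call without any whole astrocyte library (0.0774 to 0.0945) or endfeet library 2 (0.0612).

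The light chain of ferritin, Ftl1, rose by 2.76 on the log2 scale (adjusted p = 0.0345) but from 0.701 CPM to 4.84 CPM, levels that are uncertain because 74.8% of its 50-base windows occur in 15 other genes, pseudogenes among them. It did not pass without any whole astrocyte library (0.14 to 0.155). The iron chaperone Pcbp1 fell by 1.72 (adjusted p = 0.00302). The ferroxidase Heph, which can stand in for ceruloplasmin, did not pass (1.09, adjusted p = 0.177). Of the iron regulatory proteins, neither Aco1 (-1.53, adjusted p = 0.0542) nor Ireb2 (-0.22, adjusted p = 0.604) passed. All 6 endfeet libraries lay below the whole astrocyte libraries for Aco1, which passed without endfeet library 4 (-1.84, 0.0347) or library 6 (-1.32, 0.0297) and in DESeq2 (0.0229) and limma voom (0.00418).

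Among 20 heme genes, 19 were tested, with 5 higher (26.3%, near the 20.7% of all genes), 1 lower (5.26%, against 13.9%), 13 not passing and a median of -0.55. The 4 with the largest rises were transporters and receptors: the Flvcr2 membrane transporter (6.91, adjusted p = 3.45e-05), the efflux pump Abcg2 (6.30, 1.84e-06), the hemopexin receptor Lrp1 (4.07, 2.22e-05) and the hemoglobin scavenger receptor Cd163 (3.58, 0.00176), a gene that also stands in the macrophage marker list. The synthesis enzyme Uros fell (-2.56, adjusted p = 0.0365), a call lost without any whole astrocyte library (0.0975 to 0.114) or endfeet library 2 (0.0762). Hmox1, which breaks down heme, stood at 27.4 ± 4.41 CPM (n = 3) against 9.99 ± 7.91 CPM (n = 6) and did not pass (-1.47, adjusted p = 0.149), but did in limma voom (-1.93, adjusted p = 0.0154).

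Of 32 zinc and copper genes listed, 31 were tested, with 15 higher (48.4%, against 20.7% of all genes), 3 lower (9.68%, against 13.9%), 13 not passing and a median of 1.60, against 0.10 over all genes. The largest rises were in the importer Slc39a8 (6.10, adjusted p = 6.72e-07), which stood at 1.46 to 2.14 CPM in whole astrocyte and 75.7 to 167.0 CPM in endfeet libraries, and in the zinc exporter Slc30a1 (4.29, adjusted p = 5.06e-06). The copper pump Atp7a (3.34, adjusted p = 0.00024) and the importer Slc39a10 (3.33, adjusted p = 4.35e-06) followed. The 3 that fell were the copper chaperone Ccs (-2.75, adjusted p = 0.00234), its client Sod1 (-2.33, adjusted p = 0.000101) and Slc30a9 (-0.87, adjusted p = 0.0189), the last lost without any whole astrocyte library (0.0633 to 0.0981). Mtf1, the activator of metallothionein and Slc30a1 genes, did not pass (-0.81, adjusted p = 0.0827), with 97.1 to 111.2 CPM in whole astrocyte and 34.5 to 85.9 CPM in endfeet libraries. It passed without endfeet library 4 (0.0442) or library 6 (0.0312) and in limma voom (0.0053). Slc30a1 thus rose where Mt1 and Mt2 fell.

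**Figure D5:**
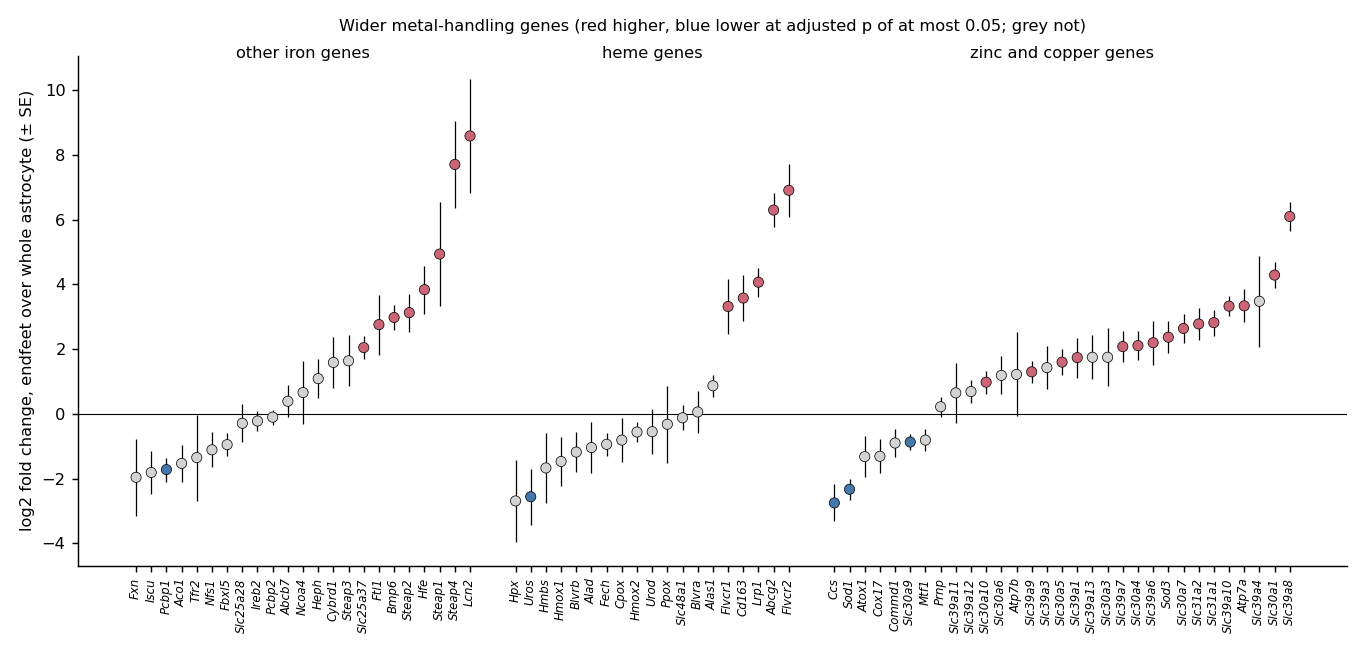
Log2 fold change in endfeet over whole astrocyte libraries (vertical axis, bars are standard errors, 3 and 6 libraries) for each tested gene of the other iron (23), heme (19) and zinc and copper (31) lists, ordered within a list. Red points passed higher, blue points passed lower, and grey points did not pass; 8, 5 and 15 genes are red and 1, 1 and 3 are blue.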

How the data were processed

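Whole astrocyte (3) and endfeet (6) TRAP libraries were prepared by the authors with Ovation amplification, sequenced as 50-base reads, filtered, aligned to mm10 (Ensembl 75) with Bowtie, cleared of reads matching more than once, and counted per transcript with HTSeq 0.5.3 (per the labels, with bcl2fastq 1.8.4). The deposited values are raw counts. Of 75466 transcripts, 73164 matched GENCODE M21 and gave 22092 genes, each represented by its transcript with the highest summed CPM. Counts were compared with edgeR 4.0.16 (TMM, filterByExpr, quasi-likelihood F-test, Benjamini-Hochberg over 14427 genes), and member ratios with exact permutation tests (0.5 counts added). DESeq2 1.42.0, limma voom 3.58.1, other scalings, filters and sample sets were alternatives. Scripts were tested on simulated data. Named genes were the 10 members, up to 4 of each direction per list, and 8 fixed genes. Members and lists were chosen with earlier results of these data known. Floors (3 counts) allow for counting error alone (reads were amplified, so 2 reads may come from 1 molecule), and p-values measure the spread between these libraries.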

Additional observations from a re-analysis of the deposited data

Results flagged for a closer look

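In 3 of 16 series of 6 endfeet values (10 members and 6 ratios), 1 library stood apart from the rest by Dixon's criterion, which chance alone meets in about 5% of groups. The Slc11a2 level was 138.6 CPM in endfeet library 3, with a gap to the next library of 0.655 of the range. The log2 ratio of Slc40a1 to Tfrc was -4.63 in endfeet library 1 (0.837 of the range), and that of Cp to Slc40a1 was 5.45 in the same library (0.667 of the range). Endfeet library 1 had 32 counts of Slc40a1, 805 of Tfrc and 1416 of Cp.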

How the results depend on the processing

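Under 16 alternatives, 157 of 160 values of the 10 members kept their direction and side of the threshold, and the other 3 were Slc11a2 without each whole astrocyte library. Limma voom called 4485 genes lower and 3928 higher, against 2006 and 2991, and leaving out 1 library gave 1171 to 2642 lower and 1874 to 3380 higher, with both lowest counts without a whole astrocyte library. The number of lower iron genes (1) became 4 with DESeq2, 6 with limma voom, 3 with the replicate block, 2 with endfeet libraries 4 to 6 only, 3 with summed transcripts and 1 to 4 without 1 library. That of lower heme genes (1) became 8 with limma voom, 2 without the filter, 2 with the replicate block, 3 with endfeet libraries 4 to 6 only and 0 to 2 without 1 library. That of lower zinc and copper genes (3) became 7 with limma voom, 5 with summed transcripts and 2 to 5 without 1 library. With counts summed over transcripts the ratio differences were -0.97 for Mt2/Mt1, -1.64 for Fth1/Tfrc and 3.60 for Slc40a1/Tfrc, each at an adjusted p of 0.0714. Without 1 library they ran from -1.10 to -0.83, from -1.86 to -1.47 and from 3.41 to 4.25, and Cp/Slc40a1 from -0.39, its sign turned without endfeet library 1, to 0.67. With endfeet libraries 4 to 6 only, the exact permutation test of a ratio (3 against 3) cannot reach 0.05. Same-numbered libraries of the 2 groups are not stated to share animals, and their deviations correlated at -0.0339, 0.00847 and 0.0714. The replicate block gave 2501 higher and 1958 lower genes, moved Slc40a1 to 5.56 on the log2 scale (adjusted p = 0.00362) and changed no call of a member, but ended those of Ftl1 (2.44, 0.123) and Uros (-3.36, 0.057) and made one for Hmox1 (-3.03, 0.0332). Without the filter Ftl1 was at 2.67 (0.0555). The cause of these shifts was not tested, apart from the fewer libraries that leaving 1 out leaves. Endfeet library 6, with 2319495 counts, limits what can be said of low genes such as Mt3.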
